A study of Homo sapiens with 6 samples.

Results

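The genes that encode the subunits, activators, inhibitor and assembly chaperones of the proteasome were examined for occupancy by RNA polymerase II in HepG2 cells, a human hepatoma line. Members were all genes whose symbol, as the deposited lists assign it to a region, runs from PSMA to PSMG followed by a number. Of the 16428 gene symbols in the 4 lists, 45 met this rule. Another 3 symbols of the same form, PSMA8, PSMB11 and PSME2, had no assigned region in any list, so 48 genes are accounted for.

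RPB1, the largest subunit of RNA polymerase II, and RPB1 phosphorylated on serine 2 of its C-terminal repeats (pSer2) were profiled by ChIP-seq, which recovers and sequences the DNA fragments that an antibody pulls down from cross-linked chromatin. The study compared untreated HepG2 cells that carried the tyrosine phosphatase SHP-1 (SHP-1-WT, the CRISPR control, called WT) with HepG2 cells in which the gene was disrupted with CRISPR (SHP-1-KO, called SHP-1 KO), and asked how loss of SHP-1 changes polymerase occupancy. The antibodies were anti-Rpb1 (ab817) and anti-Rpb1-pSer2 (ab5095). SHP-1 KO cultures were expanded from single cells, so that genotype may stand for 1 clone, and differences between clones cannot be told apart from the genotype. There was 1 library per antibody and genotype, and 2 input libraries that served the authors as background and were not analysed here. No difference below therefore has a replicate check, and no test or p-value is given. Where a pair of values stands without labels, the WT value comes before the SHP-1 KO value.

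The deposited values are regions called as enriched, each with its fold enrichment over input DNA at the summit, a ratio that says how many times more reads than input were found there. Read numbers are not among these values, and library depth is therefore unknown. The lists held 46045 and 41605 regions for RPB1 and 102674 and 81012 for pSer2. As a check of the cell type, 7 of 8 hepatocyte marker genes carried a promoter RPB1 region in both genotypes, with 82.1 and 63.8 at APOB and 24.4 and 24.1 at ALB. None of 3 fibroblast markers had a promoter or body region in any list.

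The proteasome degrades proteins that carry ubiquitin chains. Its 20S core is built from rings of alpha subunits (PSMA genes), which gate the entry, and beta subunits (PSMB genes), which include the proteases. The 19S cap holds a ring of ATPases (PSMC genes) that unfold substrates and a set of non-ATPase subunits (PSMD genes) that bind ubiquitin chains and remove them. The PSME genes encode other activators, PSMF1 an inhibitor, and the PSMG genes chaperones that help to assemble the core. Cells keep the subunits in balance, and the transcription factor NFE2L1 is known to raise many subunit genes together through antioxidant response elements when proteasome activity falls. Unphosphorylated polymerase is loaded at the promoter, and phosphorylation on serine 2 marks polymerase that travels along the gene body toward its end.

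Since the genes are known as a co-regulated set, the letters of their promoters were read first. RefSeq promoters of 300 bases (250 before and 50 after the start, GRCh38.p14) were at hand for 42 of the 48 genes, 51 promoters in all, and PSMA7, PSMB1, PSMB6, PSMB7, PSMD4 and PSMG3 had no entry. The core letters of the antioxidant response element, TGACNNNGC, were present on either strand in 15 of the 51 (29.4%) and in 13.3% of all 35116 promoters. Among the promoters overlapped by a WT RPB1 region, the shares were 14 of 46 (30.4%) and 15.2%. The ETS family letters CCGGAA were found in 22 of 51 (43.1%) against 17.2% of all, and in 45.7% against 30.5% of the promoters overlapped by a WT RPB1 region. The GC box GGGCGG was present in 68.6% of the members' and 45.0% of all promoters, but in 71.7% and 72.7% of those overlapped by RPB1, so occupied promoters as a whole are rich in it. CCAAT stood in 39.2% of the members' and 34.6% of all promoters. The nuclear respiratory factor letters GCGCANGCG were found in 13.7% against 7.52%, and in 15.2% against 15.1% of the overlapped promoters. For the YY1 letters AAGATGGCG the shares were 5.88% against 1.75%, and 6.52% against 3.81%. The longer antioxidant form TGANTCAGC was found only in the PSMD9 promoter among the 51 (1.96% against 1.36%). A match describes these letters in this window and does not show that a factor binds there.

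The windows below hold the antioxidant core in capitals, read along the gene. They belong to PSMA4 and PSMG1, which had the lowest ratios of SHP-1 KO to WT promoter RPB1 among the members, to PSMD12, which had a ratio above 1, and to PSMB3 and PSME4.
PSMA4 (chr15:78540650-78540678, + strand): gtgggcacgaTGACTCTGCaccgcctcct
PSMG1 (chr21:39183616-39183644, - strand): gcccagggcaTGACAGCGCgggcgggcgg
PSMD12 (chr17:67366724-67366752, - strand): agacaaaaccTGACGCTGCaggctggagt
PSMB3 (chr17:38752627-38752655, + strand): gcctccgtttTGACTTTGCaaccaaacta
PSME4 (chr2:53971009-53971037, - strand): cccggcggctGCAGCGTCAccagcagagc
In PSME4 the core lies on the other strand, so the capitals show its reverse complement. The next windows hold the ETS letters in capitals and come from PSMC6 and PSMG4, members with more promoter RPB1 in SHP-1 KO than in WT cells, and from PSMD6 and PSMD11, which had less. In PSMG4 and PSMD11 the letters again lie on the other strand.
PSMC6 (chr14:52707083-52707108, + strand): acggggccaaCCGGAAggggagggct
PSMG4 (chr6:3258894-3258919, + strand): acccccgcccTTCCGGggccgaaagc
PSMD6 (chr3:64023516-64023541, - strand): ggagacgggaCCGGAAgccgggccgc
PSMD11 (chr17:32444454-32444479, + strand): agggcgggctTTCCGGgtgtgtgttt
Both kinds of letters thus stand in members on either side of the comparison that follows.

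Nearly all of these genes were occupied. Each gene was given its MANE Select transcript from GENCODE release 44 (hg38), and regions were sought within 1 kb of its start, in the body beyond that, and in the 3 kb after its end. A region of RPB1 overlapped the start window in 46 of 48 members in WT cells (95.8%, exact 95% interval 85.7 to 99.5), against 60.5% of 19061 genes, and in the same number in SHP-1 KO cells, against 58.5%. The intervals cover counting error only. The genes without one were PSMA8, an alpha subunit used in the testis, and PSMB11, a beta subunit used in the thymus, and neither had a region of either antibody in its start, body or end window in any list. pSer2 regions reached the end window of 44 members in WT (91.7%, 80 to 97.7) and 43 in SHP-1 KO cells (89.6%, 77.3 to 96.5), against 48.1% and 43.5% of all genes. In the body window, pSer2 regions were present in 39 members in each genotype, 81.2% against 47.0% and 41.3% of all genes. RPB1 regions in the body were fewer, in 19 (39.6%) and 25 members (52.1%), against 38.5% and 35.1%. The median share of a member's length that pSer2 regions covered was 10.9% and 11.6%, with 0.173% and 0% over all genes, many of which had no region at all. For example, it was 91.5% and 87.0% at the alpha subunit gene PSMA7, and 80.4% and 70.8% at PSMD7, a subunit of the lid of the cap.

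**Figure D1:**
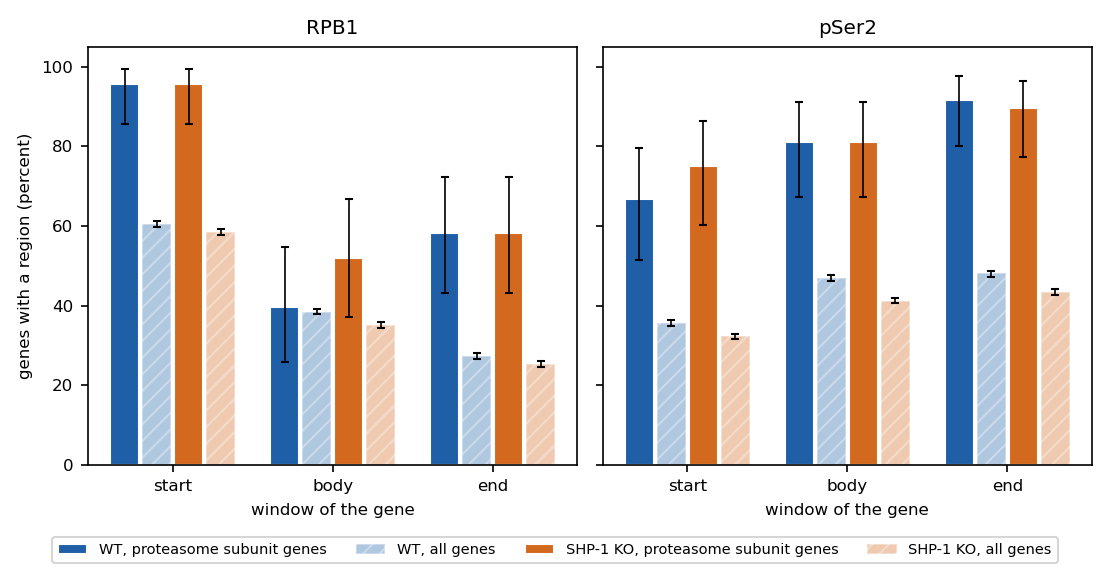
Share of genes (percent) with at least 1 region of RPB1 (left) or pSer2 (right) in the start window (1 kb on each side), the body or the 3 kb after the end, for the 48 proteasome subunit genes (solid bars) and all 19061 genes (hatched), in WT (blue) and SHP-1 KO (orange) cells; error bars are exact 95% intervals for counting error. RPB1 stands at the start of 95.8% of the members in each genotype, and pSer2 regions are most frequent at their ends (91.7% and 89.6%).

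Of the 38 members with an assigned promoter RPB1 region in WT cells, 34 had the summit of the strongest within 1 kb of the gene's own start. The others were PSMA7 (2164 bp into the gene), PSMC5 (3205 bp), PSMD7 (7655 bp) and PSMB10, whose summit lay past its end. Over the 34 members of each genotype with a summit inside this limit, its median position was 70 bp (WT) or 53 bp (SHP-1 KO) downstream of the start, and it lay downstream in 24 of 34 (70.6%) in each, against 70.0% and 69.3% of all genes. In 9 of 48 members (18.8%, 8.95 to 32.6) another gene started within 1 kb on the opposite strand, against 9.73% of all genes. These neighbours were MRPL32 at PSMA2, SS18L1 at PSMA7, TAP1 at PSMB9, FTSJ3 at PSMC5, ATG4A at PSMD10, SIRT3 at PSMD13, RNF31 at PSME2, ACYP2 at PSME4 and CEP76 at PSMG2. At such a shared start, a region cannot be divided between the genes.

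This bears on every count by gene symbol, because the lists name only 1 gene per region. Of 52 RPB1 regions at the members' starts in WT cells, 15 carried another symbol, and so did 15 of 56 in SHP-1 KO cells. For 13 members the strongest such region went to a neighbour in both genotypes. For instance, the region over the PSMD5 start was listed under CUTALP (31.2 and 14.7), the one over PSMF1 under LOC105372493 (31.5 and 23.3) and the one over PSME2 under RNF31 (28.5 and 26.6). Values are therefore given below in both ways, by the deposited symbol, which is the rule that chose the members, and by the gene's own window.

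By the deposited symbol, a promoter region is one listed within 1 kb of a transcript start, and the level of a gene is its strongest such region. The list of WT cells assigned a promoter RPB1 region to 38 members, and that of SHP-1 KO cells to 37. Of the 38, 36 had one in SHP-1 KO cells too (94.7%, 82.3 to 99.4). Promoter regions present only in WT cells were assigned to PSMA7 and PSMG3, 2 of 38, where 8.01% of all genes with a WT promoter region had none in SHP-1 KO cells. PSME1 was the member with one in SHP-1 KO cells only, where the share over all genes was 4.88%. Neither of the apparent losses was at the gene's own start. At PSMA7 the WT region of 6.17 had its summit 2164 bp into the gene, while the start was occupied in both genotypes by a region listed under SS18L1, with 53.1 and 28.4. At PSMG3 the WT region of 4.51 lay 867 bp into the gene, and in SHP-1 KO cells the place was covered by a region listed under PSMG3-AS1, which had 47.1 and 30.5 in the 2 genotypes. The SHP-1 KO region of PSME1, with 3.64, had its summit at -801 bp from the start, where WT cells had a wide region of 42.2 listed under EMC9. In the members' own start windows, each of the 46 genes occupied in WT cells was occupied in SHP-1 KO cells, where 4.49% of all genes had lost the region and 1.21% had gained one.

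The levels at the promoter were lower in SHP-1 KO cells for most members, as they were for most genes. Of 36 members with a value in both genotypes, 30 were lower (83.3%), against 84.8% of all genes. The median log2 ratio of SHP-1 KO to WT was -0.25 (quartiles -0.56 and -0.05) for the members and -0.46 (-0.75 and -0.16) for all genes. In the start windows this difference was smaller: the median was -0.42 over 46 members (-0.78 and -0.13) and -0.48 over 11012 genes (-0.76 and -0.20), and 40 of 46 members were lower (87.0%). The way regions were assigned thus moved the members' median by more than it moved that of all genes. The median level by symbol was 20.5 and 17.7 over the members, below the 26.1 and 19 over all genes. Genes were also grouped by the geometric mean of their WT and SHP-1 KO levels. At 10 to 20 the median log2 ratio was -0.15 for 16 members and -0.53 for all genes. At 30 and above it was -0.51 for 9 members and -0.44 for all genes, so the members' median differed by level.

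**Figure D2:**
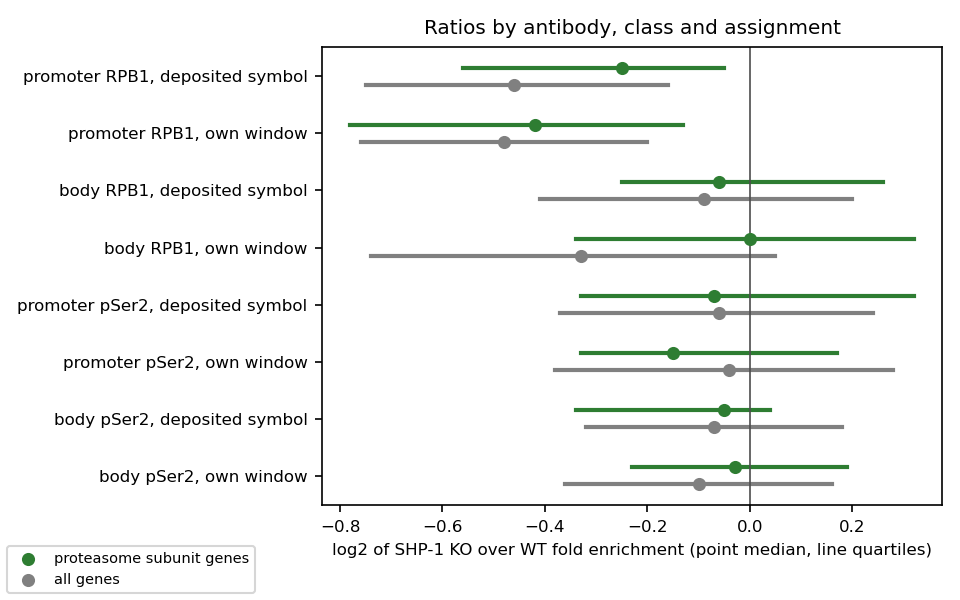
Median (point) and quartiles (line) of the log2 ratio of SHP-1 KO to WT fold enrichment for proteasome subunit genes (green) and all genes (gray), by antibody and region class, with regions taken by the deposited symbol or by the gene's own window. The members' promoter RPB1 median of -0.25 by symbol becomes -0.42 by window, next to -0.48 for all genes.

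Because the SHP-1 KO values were lower across all genes, single genes were also read relative to the median log2 ratio of all genes (centred). More than 1.5-fold below that median were 3 of 36 members (8.33%; 9.29% of all genes), PSMA4, PSMG1 and PSMD4, and more than 1.5-fold above it were 3 (8.33%; 10.3% of all genes), PSMB1, PSMC6 and PSMG4. These shares did not exceed those of all genes, and at a 2-fold limit no member remained on either side (2.27% and 2.44% of all genes). In the start windows, 6 of 46 were below (13.0%; 8.58% of all genes), adding PSMB10, PSMD5 and PSMD7, and 5 above (10.9%; 8.51% of all genes), adding PSMB4 and PSMD12.

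**Figure D3:**
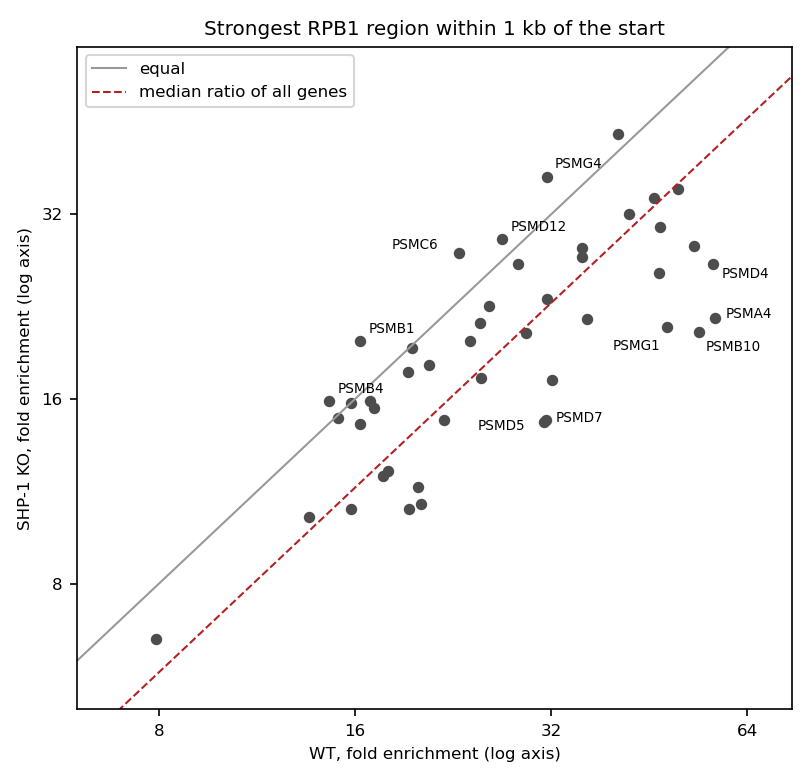
Fold enrichment of the strongest RPB1 region within 1 kb of the start in WT (horizontal, log axis) and SHP-1 KO cells (vertical, log axis) for 46 proteasome subunit genes, with the line of equality (gray) and the median ratio of all genes (dashed red). Named genes lie more than 1.5-fold from the dashed line, 6 below it and 5 above it, and 40 of 46 points lie below equality.

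Among the alpha subunits, PSMA4 had the highest promoter RPB1 level of all members in WT cells, 57.1 against 21.7 in SHP-1 KO cells, a log2 ratio of -1.39. Its promoter pSer2 was also lower, 7.72 and 4.85, whereas its body values differed less, with pSer2 of 7.52 and 6.4 and RPB1 of 5.51 and 5.96. RPB1 at the PSMA4 start was thus at 0.38 of its WT value, while a pSer2 region in the last part of the gene was called at nearly the same place in both genotypes. PSMA5 had 35.7 and 28.2, PSMA1 19.4 and 10.6, and PSMA2 20.8 and 18.2. PSMA3 (19.6 and 19.4) and PSMA6 (15.1 and 14.9) had nearly the same promoter level in both genotypes. All 6 alpha subunit genes with 2 values were lower in SHP-1 KO cells, by between 0.01 and 1.39 on the log2 scale, where 84.8% of all genes were lower.

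The constitutive beta subunits had lower and more even levels. PSMB2 was highest in WT cells with 19.3 (17.7 in SHP-1 KO) and PSMB4 lowest with 14.6 (15.9 in SHP-1 KO). The genes of the catalytic subunits had 17.7 and 12 at PSMB5, the chymotrypsin-like protease, 16.9 and 15.9 at PSMB6, the caspase-like protease, and 15.8 and 10.6 at PSMB7, the trypsin-like protease. PSMB1, a noncatalytic subunit, was the member with the highest ratio, 16.3 and 19.9, a log2 ratio of 0.29. A pSer2 region of 3.72 stood at its own start in SHP-1 KO cells and none in WT cells, and its strongest body pSer2 regions, 3.85 and 4.14, lay at different places. PSMB3 had 16.3 and 14.6 at its promoter. The 7 WT values thus lay between 14.6 and 19.3, all below the median of all genes, and 5 of the 7 were lower in SHP-1 KO cells.

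The inducible beta subunits replace the catalytic subunits in the immunoproteasome after interferon exposure. PSMB9, which shares its start region with the antigen transporter gene TAP1, had promoter RPB1 of 25 and 17.3, with the summit inside TAP1 in both genotypes. No promoter or body pSer2 region was assigned to PSMB9, and none lay in its windows. At PSMB8, the start region was listed under PSMB8-AS1 with 7.93 and 6.5, and promoter pSer2 was 2.62 and 2.02, the lowest level of any member. RPB1 was thus called at the starts of PSMB8 and PSMB9, but pSer2 in the body window of neither. PSMB10 had assigned promoter values of 6.66 and 5.22 that lay at its end, with summits 2601 and 2518 bp from the start of a gene of 2345 bp. Its own start was covered by a region listed under CTRL, 54 and 20.6, but the WT region was 10188 bp long and had its summit at -7233 bp from the PSMB10 start, so this ratio does not belong to PSMB10 alone. Unlike PSMB8 and PSMB9, PSMB10 had pSer2 in its own body window, 8.05 and 7.99, from regions also listed under CTRL.

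All 6 ATPase genes carried a promoter RPB1 region in both genotypes. By symbol, PSMC6 was highest, with 23.1 and 27.7 (log2 ratio 0.26), and the other log2 ratios were below 0. In the start window of PSMC6, pSer2 was 4.93 and 5.62. PSMC1 had 21.9 and 14.8, PSMC2 13.6 and 10.3, PSMC3 17.1 and 15.5, and PSMC4 15.8 in both. PSMC5 was lowest by symbol, with 7.88 and 7.01, because its start region was listed under FTSJ3, with 35.7 and 27.3. By symbol, body pSer2 was lower in SHP-1 KO cells in the 4 ATPase genes with values in both (58.1% of all genes were lower), by between 0.01 and 0.28 on the log2 scale. In the own body windows PSMC2 (6.23 and 6.14), PSMC4 (6.35 and 6.31) and PSMC6 (7.91 and 5.96) were lower too, but PSMC1 was higher, with 5.84 and 7.25. The PSMC2 and PSMC6 values were also those of their end windows, and the PSMC6 regions were listed under STYX. The SHP-1 KO value of PSMC1 was also that of its end window, which held 5.8 and 7.25.

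By symbol, the non-ATPase genes spanned the widest range in WT cells, from 5 to 56.8. In the own start windows they ran from 18 to 56.8, and the alpha subunits from 15.1 to 57.1. PSMD4, which encodes a receptor for ubiquitin chains, had 56.8 and 26.6 (log2 ratio -1.10), together with lower promoter pSer2 (7 and 3.41). PSMD2, a scaffold subunit, was the highest of all members in SHP-1 KO cells with 43.3, and had 40.5 in WT cells. PSMD7 was lowest by symbol, with 5 and 4.78, but the region at its start, listed under LOC101928035, had 31.4 and 14.8. Subunits of the lid differed among themselves. PSMD11 had 32.1 and 17.2, PSMD6 20.2 and 10.8, and PSMD8 46.8 and 25.7, all lower in SHP-1 KO cells by more than the median of all genes. PSMD12 had 26.9 and 29.2 at its promoter and body pSer2 of 8.43 and 9.6, with no pSer2 region in its own start window, and PSMD3 had promoter RPB1 of 25.7 and 22.7. The lid subunit PSMD13 and the deubiquitinase PSMD14 had no assigned promoter RPB1 region, but at their own starts the values were 36.3 and 21.6 for PSMD13 and 20 and 11.5 for PSMD14. Of the base chaperones, PSMD9 had 24.9 and 21.3, and at PSMD10, which had no assigned promoter or body region in any list, the start region listed under ATG4A had 18 and 12.2. PSMD5, the remaining chaperone, is given above.

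Of the activators, PSME3 had 50.1 and 35.2, and PSME4 46.1 and 34, both high among the members and lower in SHP-1 KO cells by 0.51 and 0.44 on the log2 scale. PSME1 and PSME2, which form the interferon-inducible activator, were occupied in their own start windows, with 42.2 and 32.1 and with 28.5 and 26.6. The SHP-1 KO region at PSME1 was wide and had its summit 5329 bp downstream of that start, beyond the gene, so its value cannot be assigned to PSME1 alone. Among the assembly chaperones, PSMG1 had 48.2 and 21 (log2 ratio -1.20), with promoter pSer2 of 7.34 and 6.38 and no pSer2 region in its own body window, and its partner PSMG2 had promoter RPB1 of 29.3 and 20.5. PSMG4 went the other way, with 31.5 and 36.9, and its body pSer2 was 11 and 9.36.

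**Figure D4:**
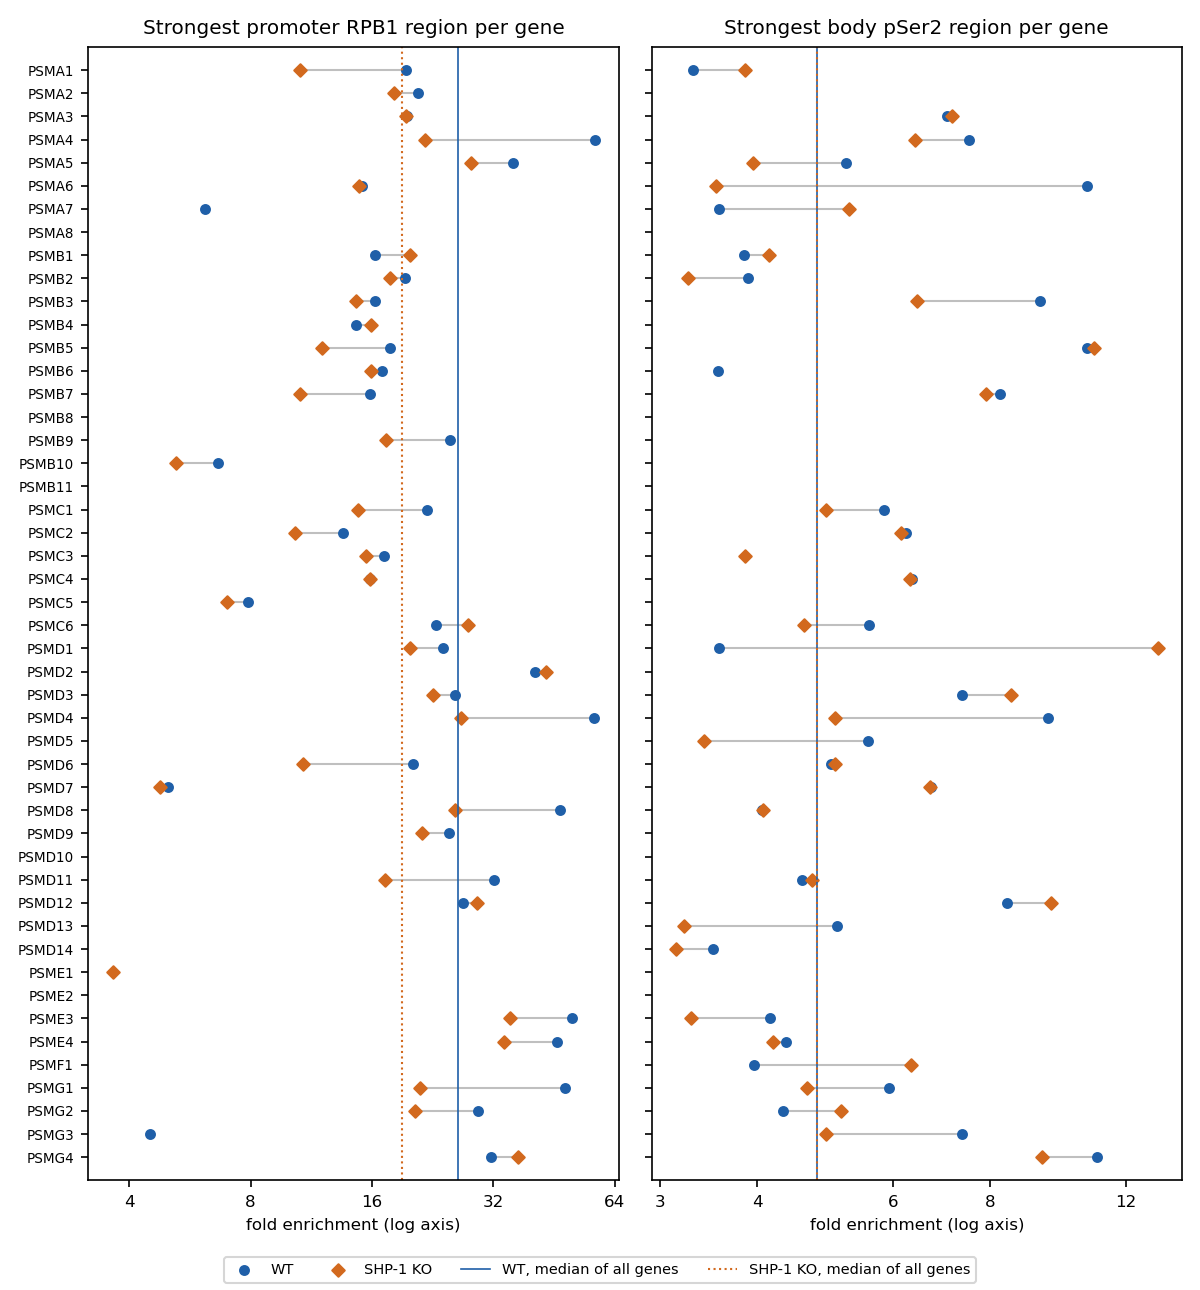
Fold enrichment (log axis) of the strongest promoter RPB1 region (left) and the strongest body pSer2 region (right) assigned to each of the 48 genes, in WT (circles) and SHP-1 KO cells (diamonds); a missing mark means that no region was assigned, and vertical lines give the medians of all genes. The promoter values range from 3.64 to 57.1, and the widest horizontal gaps in the right panel belong to PSMD1 and PSMA6.

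Body pSer2 regions were listed in both genotypes at nearly all members that had one, counting any body region of the gene. Single regions were matched less often. Of the members' WT body pSer2 regions, 115 of 196 (58.7%) were overlapped by a SHP-1 KO region, against 48.2% over all genes. In reverse it was 117 of 207 (56.5%), against 65.1%. Of 34 members with an assigned body pSer2 region in WT cells, 33 had one in SHP-1 KO cells (97.1%, 84.7 to 99.9), where 20.8% of all genes had lost theirs. PSMB6 (3.56 in WT) was the exception, and PSMC3 (3.86) had a region in SHP-1 KO cells only, where 8.36% of all genes did. The own body window of PSMC3 held 11.4 and 10.7, which were also the values of its end window. They came from regions not assigned to PSMC3. In the members' own body windows, 37 of 39 were kept (94.9%, 82.7 to 99.4; 16.1% of all genes had lost theirs), with WT regions only at PSMD5 (5.57) and PSMD9 (4.06) and SHP-1 KO regions only at PSMA2 (3.63) and PSMB6 (2.75), where 4.36% of all genes had gained one. The median WT level of body pSer2 was 5.58 for the members and 4.78 for all genes, and the part of level in these shares was not tested.

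The median log2 ratio of body pSer2 was -0.05 for 33 members (quartiles -0.34 and 0.04) and -0.07 for all genes, and 20 of the 33 were lower in SHP-1 KO cells (60.6%; 58.1% of all genes). More than 1.5-fold from the median of all genes were 3 members below (9.09%; 7.81% of all genes), PSMA6, PSMD4 and PSMD5, and 3 above (9.09%; 7.90% of all genes), PSMD1, PSMF1 and PSMA7. These shares were close to those of all genes, and at a 2-fold limit PSMA6 remained below and PSMD1 above (1.73% of all genes on either side). For several of these genes the regions compared did not lie at the same place.

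The lowest ratio, at PSMA6, came from 10.7 and 3.54, a log2 ratio of -1.60. The WT value belonged to a region of 4835 bp that began inside the last part of the gene and ran past its end, and that was listed as 3′ UTR. In SHP-1 KO cells the region at this place began just past the end of the gene, was 4172 bp long and was listed as distal intergenic with 7.39, so it did not count as body. At the same place, the values were thus 10.7 and 7.39. The highest ratio, at PSMD1, came from 3.57 and 13.2, a log2 ratio of 1.89. Here the SHP-1 KO region had its summit at -6481 bp from the PSMD1 start (chr2:231045809-231053071, hg38), and WT cells had a region of 19.1 at this place that was listed under C2orf72. Inside the PSMD1 body window, pSer2 was 3.57 and 4.15. The RPB1 body values of PSMD1, 28.6 and 16.6, also lay upstream of the gene.

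At PSMD4 the WT region of 9.52 had its summit at -4144 bp from the start, and inside the body window the values were 7.37 and 5.05. At PSMA7 both regions (3.57 and 5.26) lay beyond the end of the gene under LSM14B. Its own body window held 9.01 and 11.6, but from different places. The SHP-1 KO region of 11.6 had its summit 8434 bp from the start of this gene of 6662 bp, and WT cells had 8.05 there. At the place of the WT region of 9.01, SHP-1 KO cells had 5.8. PSMD5 had 5.57 at its end in WT and 3.42 just beyond it in SHP-1 KO cells, and PSMF1 had 3.97 and 6.33 within its introns, where the WT region at the same place had 3.7. In the whole body window of PSMF1 the direction was the opposite, with 9.3 and 7.89. The next lowest ratio was at PSMD13 (5.08 and 3.22), with the same values in its own window. The WT region lay across the end of the gene and the SHP-1 KO region in an intron. At the place of the WT region, SHP-1 KO cells had 4.29, listed as distal intergenic. PSMG3 followed with 7.37 and 4.92 from regions upstream of the gene, while its own body window held 3.3 and 3.86, the opposite direction. Among the next highest, the PSMG2 regions (4.32 and 5.14) lay under CEP76, and the own window held 3.81 and 4.07. PSMA1 had 3.31 and 3.86 by symbol but 4.39 and 3.86 in its own window, again the opposite direction.

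In the members' own body windows, PSMA6 was the 1 of 37 genes below (2.70%; 9.53% of all genes), with 10.7 and 3.66, and PSMD11 (4.57 and 7.5) and PSME3 (5.03 and 12.9) were above (5.41%; 8.46% of all genes). The SHP-1 KO values of PSMD11 and PSME3 were also those of their end windows, so these regions ran across the end of the gene. In the end window PSMD11 went the other way, with 9.61 and 7.5, while PSME3 had 6.9 and 12.9. By symbol, body pSer2 was 4.57 and 4.71 at PSMD11 and 4.16 and 3.29 at PSME3. In the 3 kb after the end, where the PSMA6 region is counted in both genotypes, PSMD5 was the 1 of 43 below (2.33%; 10.4% of all genes) and 7 were above (16.3%; 10.2% of all genes), PSMA3, PSMA5, PSMA7, PSMD6, PSME2, PSME3 and PSMG2. One WT end region was absent from SHP-1 KO cells, at PSMB8 (3.83), where 12.9% of all genes had lost theirs, and no member had an end region in SHP-1 KO cells only (3.78% of all genes). The median log2 ratio there was -0.08 for 43 members and -0.10 for all genes.

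**Figure D5:**
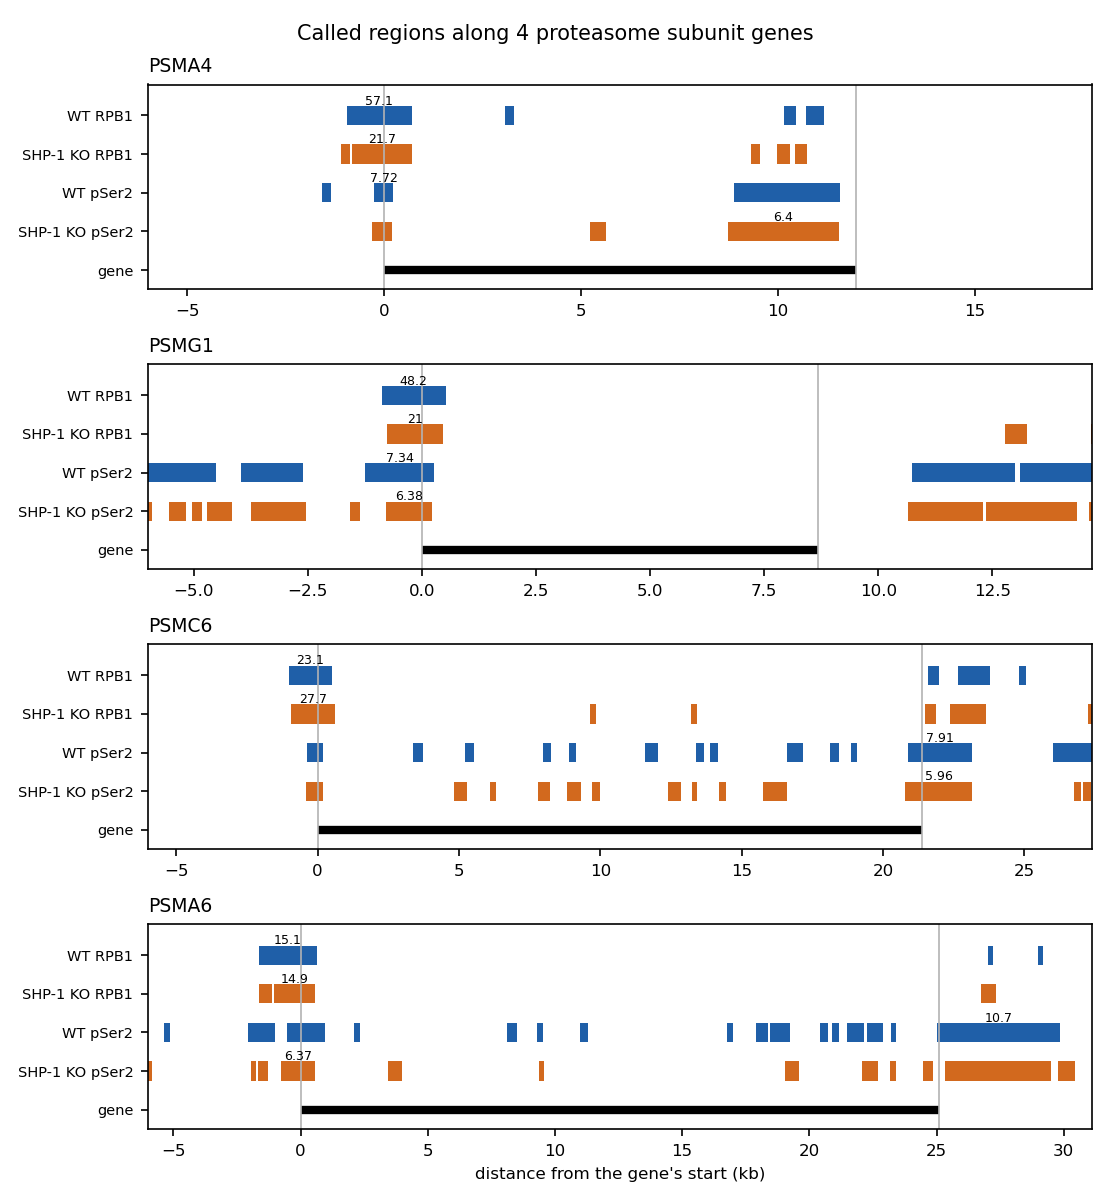
Called regions of RPB1 and pSer2 in WT (blue) and SHP-1 KO cells (orange) along PSMA4, PSMG1, PSMC6 and PSMA6, by distance from the gene's start (kb); black bars are the genes and the number above a row is the highest fold enrichment among regions that touch the gene. The PSMA6 panel shows the WT pSer2 region of 10.7 reaching back across the end of the gene and the SHP-1 KO region beginning just past it.

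Promoter pSer2 and body RPB1 differed more from list to list. Promoter pSer2 regions were assigned to 36 members in each genotype, 32 of them shared. PSMB7 (3.73), PSMD5 (3.05), PSMD13 (4.83) and PSMF1 (3.83) had one in WT cells only, 4 of 36, where the share over all genes was 20.6%. PSMB10 (4.26), PSMD14 (3.17), PSME4 (3.66) and PSMG4 (5.12) had one in SHP-1 KO cells only, where the share was 10.2%. Several of these lay at internal starts far from the gene's own, such as 17065 bp into PSMF1, 90303 bp into PSME4 and 97931 bp into PSMD14. The median log2 ratio was -0.07 for the members and -0.06 for all genes, with 3 of 32 members more than 1.5-fold below (9.38%; 11.0% of all genes), PSMA4, PSMB6 and PSMD4, and 3 above (9.38%; 10.4% of all genes), PSMC2, PSMD3 and PSMD12. PSMD3 and PSMD12 had no pSer2 region in their own start windows, and PSMB6 had none there in WT cells. None passed 2-fold (2.88% below and 2.18% above among all genes). In the own start windows, 31 of 32 members kept their pSer2 region (96.9%, 83.8 to 99.9; 19.9% of all genes had lost theirs), and PSMB1, PSMB6, PSMD2, PSMD8 and PSMG4 had one in SHP-1 KO cells only, 5 of 36, where 11.6% of all genes did. There, PSMA4, PSMA7 and PSMD4 were more than 1.5-fold below, 3 of 31 (9.68%; 12.9% of all genes), and PSMC2 above (3.23%; 12.2% of all genes).

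Body RPB1 regions were assigned to 19 and 23 members, of which 17 were shared. PSMA1 (4.87) and PSMC3 (4.51) had one in WT cells only, 2 of 19, where 27.2% of all genes did. PSMA5 (5.3), PSMA6 (5.97), PSMC6 (3.24), PSMD8 (4.22), PSMD13 (5.93) and PSME3 (4.91) had one in SHP-1 KO cells only, 6 of 23 (19.7% of all genes). These were weak regions, all under 6. Those of PSMA1, PSMA6 and PSME3 lay outside the named gene, with summits at -63231, -1352 and -4325 bp from its start. The PSMA6 region lay within the WT promoter region of 15.1. The median log2 ratio was -0.06 for 17 members and -0.09 for all genes, with 2 members more than 1.5-fold below (11.8%; 12.1% of all genes), PSMD1 and PSMG4, and 2 above (11.8%; 9.27% of all genes), PSMB4 and PSMC4. At 2-fold, none was below (3.44% of all genes) and PSMB4 (4.41 and 8.43) was above (2.16%). Both PSMB4 regions lay past the end of this gene of 2365 bp, with summits 3344 and 3639 bp from its start. At PSMC4 (summits at 2846 and 10317 bp) and PSMG4 (7458 and 8934 bp) the regions compared lay at different places in the gene. Only 22 of 44 body RPB1 regions listed for WT cells and 38 of 57 for SHP-1 KO cells touched the gene to which they were assigned, against 165 of 196 and 170 of 207 body pSer2 regions. In the own body windows, PSME2 was the 1 of 19 members with an RPB1 region in WT cells only (19.1% of all genes), while PSMA5, PSMB4, PSMB6, PSMC6, PSMD2, PSMD13 and PSME3 had one in SHP-1 KO cells only, 7 of 25 (11.3% of all genes).

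By window, the members' ratios stood farthest from those of all genes for RPB1 in the body and past the end. By symbol, the body RPB1 medians were close, -0.06 for the members and -0.09 for all genes. In the body window, 9 of 18 members with both values were lower in SHP-1 KO cells (50.0%), against 72.2% of all genes, and the median log2 ratio was near 0 against -0.33. Past the end, 12 of 25 members were lower (48.0%), against 67.4%, and the median was 0.00 against -0.23. The levels differed as well, since the median WT value in the body window was 7.01 for the members and 12 for all genes, and their part in the result was not tested. By symbol, genes were grouped by the geometric mean of WT and SHP-1 KO body RPB1. Below 10, the median log2 ratio was 0.03 for 16 members and -0.06 for all genes, a smaller gap. More than 1.5-fold below the median of all genes in the body window were PSMB5 and PSMB10, 2 of 18 (11.1%; 18.7% of all genes), and above it were PSMC4, PSMD8, PSMD12, PSMG3 and PSMG4 (27.8%; 15.4% of all genes). At PSMD8 (4.51 and 25.7), PSMG3 (4.51 and 30.5) and PSMG4 (7.02 and 36.9) the SHP-1 KO value was that of the start region, which reached past 1 kb. At PSMB5 (17.7 and 8.17) the WT value was that of the start region, and the end window held 6.36 and 8.17. At PSMA7 (53.1 and 28.4), PSMB10 (54 and 20.6), PSME1 (42.2 and 32.1) and PSMF1 (31.5 and 23.3) both values were also those of the start window. These ratios thus do not describe the body alone. The end values of PSMC6 (38.9 and 29.2) came from regions listed as promoter of STYX. Past the end, no member was below (13.6% of all genes) and PSMB4, PSMB5, PSMB6 and PSMG3 were above, 4 of 25, against 12.0% of all genes. PSMA3, PSMB2 and PSMD13 had an end region of RPB1 in WT cells only, 3 of 28 (17.0% of all genes), and PSMB1, PSMD1 and PSMD12 in SHP-1 KO cells only (10.6% of all genes).

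Genes that work with the proteasome were read by the deposited symbol only, so a value may not be that of the gene's own start. In a list of 27 genes for its transcription, assembly, substrate delivery and ubiquitin supply, 23 had a promoter RPB1 region in both genotypes, 19 of these were lower in SHP-1 KO cells, where 84.8% of all genes were, and the median log2 ratio was -0.29 against -0.46 for all genes. NFE2L1 had 48.5 and 39.8, with body pSer2 of 5.98 and 6.14. NFE2L2, its paralog, had 38.3 and 32.1, and DDI2, the protease that cleaves NFE2L1 into its active form, 37.5 and 24.4. The core maturation factor POMP had 49.3 and 40.3, and VCP, the ATPase that extracts ubiquitinated substrates, 48.9 and 40.5. Below the median of all genes by more than 1.5-fold was USP14, a deubiquitinase bound to the cap (44.4 and 18.5), 1 of 23 (9.29% of all genes), and above it were PAAF1 (3.53 and 3.87) and RPS27A (5.53 and 15.2), 2 of 23 (10.3% of all genes).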

How the data were processed

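RPB1 and pSer2 were profiled in HepG2 cells of both genotypes, grouped by the sample labels. Reads were trimmed by the authors with Trimmomatic, aligned to hg38 with BWA in the MUGQIC pipeline and called as narrow peaks with MACS2 against input DNA of the same cells; the versions are not given in the sources used here. The deposited lists give each region's fold enrichment over input, a ratio, the −log10 p-value and q-value, its genomic feature and the nearest gene. An authors' table of the RPB1 comparison by csaw (p-values and numbers of windows) was not used.

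The level of a gene was the strongest of its promoter or body (UTR, exon, intron) regions, as log2 ratios of SHP-1 KO to WT, also after subtracting the median ratio of all genes (centred). Body includes regions of any transcript, so it can lie outside the named gene. Separately, regions with at least 1 bp in windows of the MANE Select transcript (GENCODE release 44, 19061 genes) were used. Shares have exact Clopper-Pearson 95% intervals. Members, pathway genes, markers and motifs were chosen with earlier results of these data known. The result of 1 marker list is not reported here. Genes were named by rule: the highest and lowest promoter RPB1 level per subunit class, the 5 highest and 5 lowest ratios of promoter RPB1 and body pSer2, members with a region in 1 genotype only, and the tissue-restricted members; other members are given for completeness. Promoters came from RefSeq (GRCh38.p14). The alternatives were a −log10 q-value of at least 5, assignment by position, downstream regions in the body, merged intervals, no chromosome arm 1p, the median over regions, uncentred ratios and a 2-fold limit. The functions were tested on simulated data. Scripts ran under Python 3.11.15 with SciPy 1.17.1, NumPy 2.4.6, pandas 2.3.3 and matplotlib 3.10.9 for the plots.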

Additional observations from a re-analysis of the deposited data

How the results depend on the processing

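With 1 library per antibody and genotype, no replicate could be left out, and the unknown depth limits what a missing region means. No paired analysis was possible because each group has 1 library. The share of members that kept a promoter RPB1 region was 100% by position and by summit, and 54.5% (6 of 11) when 2 or more regions were required; that of body pSer2 was 83.3% (25 of 30) among regions with a −log10 q-value of 5 or more. Among members, the median log2 ratio of promoter RPB1, -0.25, was -0.42 by position, -0.43 by summit and -0.48 as the median over regions. Its difference from all genes, 0.21, was 0.06 by position, 0.05 by summit, 0.33 among genes with levels of 10 to 30, and turned to -0.07 with the median over regions; the cause was not tested. The summit and level settings were chosen after seeing the data. Without centring, 7 members were over 1.5-fold lower and 0 higher for promoter RPB1, and 1 was higher for body RPB1. At 2-fold, promoter RPB1 and promoter pSer2 had 0 lower and 0 higher, body RPB1 0 lower and 1 higher, and body pSer2 1 lower and 1 higher. Limiting promoters to 1 kb and merging overlapping intervals changed no value, since the lists already met both. Leaving out chromosome arm 1p gave shares of 94.4% and 96.9% and counting downstream regions as body gave 94.7% and 97.1%.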
